A study of Homo sapiens with 12 samples.

Results

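The heat shock proteins and J-domain co-chaperones were examined by mRNA-seq in HCC1806 cells, a line of basal-like triple-negative breast cancer (TNBC). Members were the protein-coding genes of the processed table whose symbol begins with HSPA, HSPB, HSPH1, HSP90, HSPD1, HSPE1, DNAJA, DNAJB or DNAJC. Of the 17013 genes in the table, 63 fitted this rule. The annotation holds 76 such protein-coding genes, and the other 13, among them the muscle and testis forms HSPB2, HSPB3, HSPB7 and HSPB9, are not in the table. By textbook location, 32 members belong to the cytosol and nucleus, 8 to the lumen of the endoplasmic reticulum (ER), 6 to the ER membrane, 8 to mitochondria and 9 elsewhere. HSPBP1 and HSPBAP1 enter through their symbols only, since they are partners of HSP70 and of HSPB1 and not small heat shock proteins.

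Cells of the 4 groups were transfected with siNT, which is the siGENOME Non-Targeting siRNA #5, or with siMLK4, a pool of 4 siRNAs against MLK4. From 24 h after transfection they received 1 μM doxorubicin, an anthracycline that poisons topoisomerase II, for a further 24 h, or no drug. The sample labels call the cells without drug both DMSO and time 0, and the Methods call them untreated. Here they are named vehicle. A supplementary legend of the paper gives 24 h of DMSO or of doxorubicin, which would make the harvest times equal. If instead time 0 was their harvest, the drug and 24 h of further culture cannot be told apart. Each group had 3 libraries of 16759025 to 19302248 reads in the table. These stand for cells of 1 line transfected in triplicate, and nothing states that they were repeated on separate days, so p-values measure only the spread between these libraries. In bulk libraries, fewer cells of a kind and less RNA per cell cannot be told apart.

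HSP70 proteins bind exposed hydrophobic stretches of unfolded clients in a cycle driven by ATP. J-domain proteins deliver clients and trigger ATP hydrolysis, and exchange factors such as HSPH1 release the nucleotide. HSP90 proteins act later, on nearly folded clients that include kinases and steroid receptors, and the HSPD1 and HSPE1 chaperonin folds proteins imported into mitochondria. In the cytosol many of these genes are switched on by HSF1, which binds heat shock elements, whereas the ER members answer to ATF6, XBP1 and ATF4 in the unfolded protein response.

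The promoters of both kinds of members were read for these elements in the RefSeq windows of 250 bases before to 50 bases after the gene start (GRCh38.p14), which were found for 59 of the 63 members. A heat shock element of 2 units was searched as GAANNTTC or TTCNNGAA, each of which reads the same on both strands. It was found in 11 member promoters (18.6%) and in 13.7% of all 27305 promoters, and in 10.3% of the promoters of genes in the table. By compartment it was in 30% of the 30 cytosolic promoters, in 25% of the 8 mitochondrial and in none of the 7 of the ER lumen. A chain of 3 such units, GAANNTTCNNGAA or TTCNNGAANNTTC, which overlaps the shorter element, was found in 4 member promoters (6.78%) and in 0.487% of all promoters. All 4 belong to cytosolic genes, HSPA8, HSPA6, DNAJA1 and DNAJB6. The windows of the cytosolic HSP90AA1, HSP90AB1, HSPH1 and DNAJB1 held no heat shock element of either length. The ER stress element, CCAAT and CCACG with 9 bases between them, searched on both strands, was found in 2 member promoters, those of HSPA5 and HSP90B1, and in 0.0806% of all promoters. A match is a description of the letters only.

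The following stretches hold the 250 bases before the start, 5′ to 3′ on the strand of the gene, and are shown because they carry these elements in members that moved differently after doxorubicin. Capitals mark heat shock elements in HSPA8 (chr11:123062137-123062386, minus strand), HSPA6 (chr1:161524290-161524539, plus strand), DNAJA1 (chr9:33025023-33025272, plus strand) and HSPB8 (chr12:119178681-119178930, plus strand). They mark ER stress elements in HSPA5 (chr9:125241344-125241593, minus strand) and HSP90B1 (chr12:103930160-103930409, plus strand). The chain of 3 units of DNAJA1 is not within the stretch shown, since the search window also holds the 50 bases after the start.
HSPA8: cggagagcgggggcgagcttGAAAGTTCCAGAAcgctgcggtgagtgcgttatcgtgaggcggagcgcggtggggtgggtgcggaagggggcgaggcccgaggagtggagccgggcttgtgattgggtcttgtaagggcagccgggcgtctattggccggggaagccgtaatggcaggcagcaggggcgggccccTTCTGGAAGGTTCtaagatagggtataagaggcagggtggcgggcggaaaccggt
HSPA6: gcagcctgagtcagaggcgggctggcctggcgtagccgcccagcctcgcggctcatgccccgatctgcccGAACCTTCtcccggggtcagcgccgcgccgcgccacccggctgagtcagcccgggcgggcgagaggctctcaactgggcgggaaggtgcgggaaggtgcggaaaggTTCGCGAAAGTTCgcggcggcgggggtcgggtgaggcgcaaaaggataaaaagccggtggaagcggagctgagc
DNAJA1: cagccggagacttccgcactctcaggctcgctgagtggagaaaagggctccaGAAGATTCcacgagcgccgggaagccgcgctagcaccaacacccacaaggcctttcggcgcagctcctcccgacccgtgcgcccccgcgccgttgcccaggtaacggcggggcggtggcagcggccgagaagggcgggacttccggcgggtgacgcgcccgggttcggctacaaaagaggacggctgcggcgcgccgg
HSPB8: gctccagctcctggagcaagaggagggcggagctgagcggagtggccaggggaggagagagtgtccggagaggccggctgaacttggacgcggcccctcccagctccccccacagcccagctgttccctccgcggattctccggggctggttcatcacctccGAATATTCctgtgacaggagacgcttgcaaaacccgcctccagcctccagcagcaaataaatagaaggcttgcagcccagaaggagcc
HSPA5: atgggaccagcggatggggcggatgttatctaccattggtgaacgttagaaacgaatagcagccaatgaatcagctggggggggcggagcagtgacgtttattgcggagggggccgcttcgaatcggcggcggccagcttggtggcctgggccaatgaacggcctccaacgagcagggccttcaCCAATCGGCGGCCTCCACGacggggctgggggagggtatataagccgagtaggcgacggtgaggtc
HSP90B1: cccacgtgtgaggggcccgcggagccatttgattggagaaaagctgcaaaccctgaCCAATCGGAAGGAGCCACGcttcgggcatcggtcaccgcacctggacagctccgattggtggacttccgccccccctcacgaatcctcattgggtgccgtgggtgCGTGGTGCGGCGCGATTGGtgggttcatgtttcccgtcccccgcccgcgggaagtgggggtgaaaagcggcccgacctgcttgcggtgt

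As a check of the siRNA labels, MAP3K21, the gene of MLK4, was read first. The siNT libraries held 553, 669.6 and 674 normalized reads with vehicle and 758, 856 and 772 with doxorubicin. In siMLK4 cells it had 103, 94.7 and 88.7 with vehicle and 113, 138 and 94.4 with doxorubicin, so that no siMLK4 library overlapped a siNT library. Normalized reads are reads divided by the authors' size factor of the library. The epithelial and basal markers fitted the line, with group means of 7035 to 32257 normalized reads for KRT5 and 8578 to 13823 for EPCAM. The leukocyte marker PTPRC was low throughout, with means of 5.48 and 1.75 with vehicle and 20.3 and 17.9 with doxorubicin. It was called higher with doxorubicin in siMLK4 cells. No gene of the table had a highest group mean under 10.67 normalized reads, and PTPRC lay below this with vehicle. It is in the table through its doxorubicin libraries, which fixes the direction of its change. The basal markers KRT5 (−1.24 and −2.20), KRT14 (−1.26 and −1.48), KRT6A (−1.36 and −1.20) and TP63 (−1.60 and −1.58) fell with doxorubicin in siNT and siMLK4 cells, whereas KRT17 gave −0.01 and −0.17 and EPCAM −0.04 and −0.05. With siMLK4, KRT14 (−1.05 and −1.26) and KRT6A (−1.19 and −1.03) were lower with vehicle and with doxorubicin. EPCAM was lower at both treatments too, though not called (−0.62 and −0.63, adjusted p = 0.0058 and 0.0056 with limma). KRT5 gave 0.64 with vehicle (adjusted p = 0.0074) and −0.32 with doxorubicin (adjusted p = 0.14). KRT17 gave −0.66 with vehicle (adjusted p = 0.0069) and was called lower with doxorubicin (−0.82). The fibroblast marker COL1A1 was called higher with vehicle (0.78). PGR, the progesterone receptor, was listed at 0 in the vehicle libraries and had means of 13.3 and 11.7 normalized reads with doxorubicin. Its direction was fixed in the same way as that of PTPRC. ESR1, the estrogen receptor, had means of 46.5 to 117, and the receptor ERBB2 had means of 1459 to 1893. EGFR fell with doxorubicin in siNT and siMLK4 cells (−1.34 and −1.30), where CDH1 gave −0.28 and −0.34. With siMLK4, CDH1 gave 0.38 with vehicle and 0.31 with doxorubicin (adjusted p = 0.058 and 0.12 with limma), opposite in sign to EPCAM. The part of these shifts in the values of the members was not tested.

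Per length, the members covered a wide range of levels. In the siNT vehicle group the highest was HSP90B1, the HSP90 of the ER lumen, with 34194 ± 4256 normalized reads per 1000 bases of transcript (SD, n = 3). The cytosolic HSP90AA1 (32374 ± 5462) and HSP90AB1 (31669 ± 3084) lay within 1 SD of it on this scale. The chaperonin HSPD1 (22005 ± 3405), the constitutive HSP70 HSPA8 (18928 ± 4664) and the ER HSP70 HSPA5, also known as BiP (15427 ± 2514), came next in that order. The gaps from HSPD1 to HSPA8 and from HSPA8 to HSPA5 were smaller than the SD of HSPA8. With doxorubicin in siNT cells the order was HSP90B1 at 23744 ± 781, HSPA8 at 18325 ± 1137, HSP90AB1 at 13773 ± 1060, the small heat shock protein HSPB1 at 11155 ± 1846 and only then HSP90AA1 at 10055 ± 773, always in normalized reads per 1000 bases. HSPA5 was at 5153 ± 394 and followed HSPD1 at 8763 ± 359.

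The first question was how doxorubicin changed these genes in siNT cells and in siMLK4 cells. In both, the abundant HSP90AA1, HSP90AB1, HSPA5 and HSPD1 fell, and a set of less abundant members that included HSPB8 and DNAJB9 rose. Calls were made with limma and required a log2 fold change beyond 0.75 in size together with an adjusted p under 0.01, and log2 fold changes are on the authors' variance-stabilized scale. In siNT cells 12 members were called higher, where 12.1% of all genes were, and 8 lower, where 10.6% of all genes were. In siMLK4 cells 9 were called higher, beside 12.6% of all genes, and 7 lower, beside 10.6%. Without siMLK4 doxorubicin replicate 3 the siMLK4 counts were 11 and 11, beside 14.2% and 11.8% of all genes. Over all 63 members the shares were 19% higher and 12.7% lower in siNT cells, and 14.3% and 11.1% in siMLK4 cells. Of the members called higher, 7 were so in both siRNA groups, which is 58.3% of the siNT list and 77.8% of the siMLK4 list. Of those called lower, 6 were shared (75% and 85.7%). Over all genes the shared calls were 72.9% and 69.9% of the lists of higher genes and 71.8% and 71.6% of those of lower genes. All 23 members called in either group had a log2 fold change of the same sign in the other, significant or not, as did 98.9% of all genes so called. Over all 63 members the sign was the same in 54 (85.7%), and over all genes in 86%. Scaling libraries by their totals on log2(reads + 1) replaced both the authors' size factors and the variance-stabilized scale. The median log2 fold change of all genes was then 0.24 in siNT cells and 0.21 in siMLK4 cells. The split of calls was 18 higher and 5 lower in siNT cells, and 14 and 7 in siMLK4 cells. On log2(normalized reads + 1), which keeps the size factors, the splits were 14 and 9, and 11 and 11. The all-gene medians there were 0.007 and 0.026. Under library totals 24.7% of all genes were called higher and 8.96% lower in siNT cells, and 23.1% and 10.5% in siMLK4 cells. On log2(normalized reads + 1) these shares were 18.8% and 14.1%, and 18.1% and 14.5%.

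**Figure D1:**
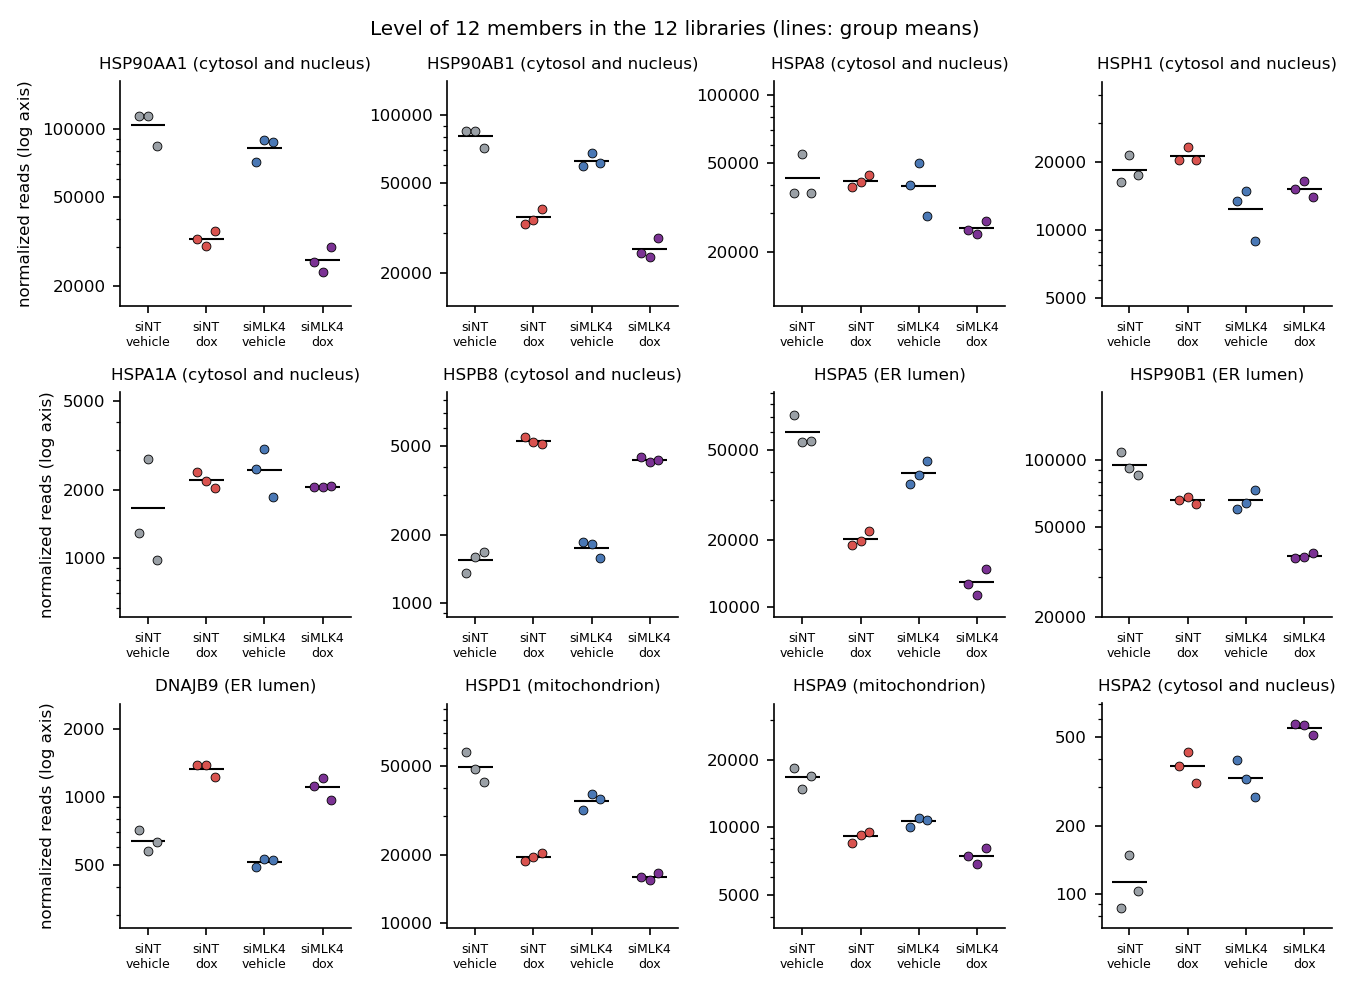
Normalized reads (log axis) of 12 members in each of the 12 libraries, with points for libraries and lines for group means. HSP90AA1, HSP90AB1, HSPA5 and HSPD1 sit lower in every doxorubicin library than in any vehicle library, HSPB8 and DNAJB9 sit higher, and HSPA1A overlaps between the groups.

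Among the cytosolic HSP90 genes, HSP90AA1, which encodes the inducible alpha form, stood at 114520, 114840 and 84145 normalized reads in siNT cells with vehicle and at 32268, 30059 and 35041 with doxorubicin. Its level with doxorubicin was 31.1% of that with vehicle, a log2 fold change of −1.67 ± 0.16 (SE, adjusted p = 1.2e-06). In siMLK4 cells it went from 71444, 89140 and 87436 to 25703, 23068 and 30012, a log2 fold change of −1.65 ± 0.16 (adjusted p = 1.3e-06). All doxorubicin libraries lay below all vehicle libraries. The constitutive HSP90AB1 had 85373, 85553 and 71815 normalized reads with vehicle and 32952, 34420 and 38200 with doxorubicin in siNT cells (log2 fold change −1.20 ± 0.13, adjusted p = 3.8e-06). In siMLK4 cells its log2 fold change was −1.31 ± 0.13 (adjusted p = 1.8e-06), again with no overlap of the libraries. Of the 50-base stretches of HSP90AA1 19.1% also occur in another gene, as do 19.7% of those of HSP90AB1 and 16.8% of those of HSPA8. In all, 16 members share at least 10% of their stretches with another gene. The ER form HSP90B1 was also lower, from 108230, 91956 and 85195 to 66292, 68101 and 63774 in siNT cells, but by less. Its log2 fold change of −0.52 ± 0.13 (adjusted p = 0.0034) did not reach the fold threshold there, whereas it fell by 0.82 on the log2 scale in siMLK4 cells (SE 0.13, adjusted p = 0.0001). That call was lost when scaling by library totals, under limma-voom and without siMLK4 vehicle replicate 3, and the difference between the responses was −0.30 with an interval of −0.69 to 0.09 (adjusted p = 0.51).

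Of the cytosolic HSP70 genes, HSPA8, the constitutive form, had 36817, 55045 and 36695 normalized reads with vehicle and 39053, 41228 and 44181 with doxorubicin in siNT cells, and these libraries overlapped (log2 fold change −0.02 ± 0.19, adjusted p = 0.93). With siMLK4 the same gene had 39728, 49928 and 28940 with vehicle and 25024, 24066 and 27550 with doxorubicin (log2 fold change −0.60 ± 0.19, adjusted p = 0.016), which did not overlap but missed both thresholds. The stress-inducible HSPA1A had 1292, 2750.2 and 972 normalized reads with vehicle and 2396, 2203 and 2034 with doxorubicin in siNT cells. Vehicle replicate 2 lay above every doxorubicin library, and the log2 fold change of 0.53 ± 0.27 was not significant (adjusted p = 0.11). In siMLK4 cells the log2 fold change of HSPA1A was −0.22 ± 0.27 (adjusted p = 0.51). HSPA1B, its near-identical neighbour, gave 0.30 ± 0.20 and −0.27 ± 0.20. Of the 50-base stretches of HSPA1A, 75.1% also occur in another gene, so the reads of the pair are uncertain. HSPA6, the strictly inducible HSP70, rose in siNT cells from 14.1, 14.5 and 14.6 to 72.9, 51.9 and 43.6 normalized reads (log2 fold change 0.89 ± 0.12, adjusted p = 3.9e-05), although 45.8% of its stretches occur elsewhere, more in HSPA7 than in any other gene. In siMLK4 cells it had 18, 14.9 and 16.2 with vehicle and 17, 29.2 and 20 with doxorubicin, which overlap.

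The HSP70 genes known mainly from testis were low but rose. HSPA2 went from 86.9, 149.5 and 103 normalized reads to 371, 428 and 312 in siNT cells (log2 fold change 1.39 ± 0.16, adjusted p = 6.7e-06). The siMLK4 libraries went from 394, 323 and 269 to 568, 562 and 509.9 (0.67 ± 0.16, adjusted p = 0.0025), short of the fold threshold. HSPA1L, which lies head to head with HSPA1A on chromosome 6, rose with either siRNA, by 1.00 ± 0.25 on the log2 scale in siNT cells (adjusted p = 0.0031) and by 1.20 ± 0.25 with siMLK4 (adjusted p = 0.00084). Its call in siNT cells was lost when vehicle replicate 3, doxorubicin replicate 1 or doxorubicin replicate 2 was left out. The exchange factor HSPH1 had overlapping libraries in both siRNA groups, with log2 fold changes of 0.22 ± 0.17 and 0.32 ± 0.17 (adjusted p = 0.28 and 0.12).

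The small heat shock proteins hold unfolded proteins without ATP. HSPB8, which works with BAG3 in selective autophagy, had the largest log2 fold change of any member in siNT cells on the variance-stabilized scale, which compresses the changes of low genes. It had 1352, 1598 and 1683 normalized reads with vehicle and 5485, 5179 and 5058 with doxorubicin, a 3.39-fold higher mean. By this ratio of means the low HSPA6, at 3.90-fold, and HSPA1L, at 3.50-fold, rose more, and DNAJC5G started from almost no reads. The log2 fold change of HSPB8 was 1.73 ± 0.11 (adjusted p = 4.2e-08). In siMLK4 cells it went from 1865, 1832 and 1573 to 4433, 4227 and 4300.4 (1.28 ± 0.11, adjusted p = 5.1e-07). All doxorubicin libraries lay above all vehicle libraries in both. HSPB1, the abundant Hsp27, had 6374, 6033 and 4368 normalized reads with vehicle and 10013, 7158 and 8832 with doxorubicin in siNT cells. These libraries did not overlap, but the log2 fold change of 0.63 ± 0.20 (adjusted p = 0.017) missed both thresholds. With siMLK4 it was 0.12 ± 0.20 (adjusted p = 0.64).

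**Figure D2:**
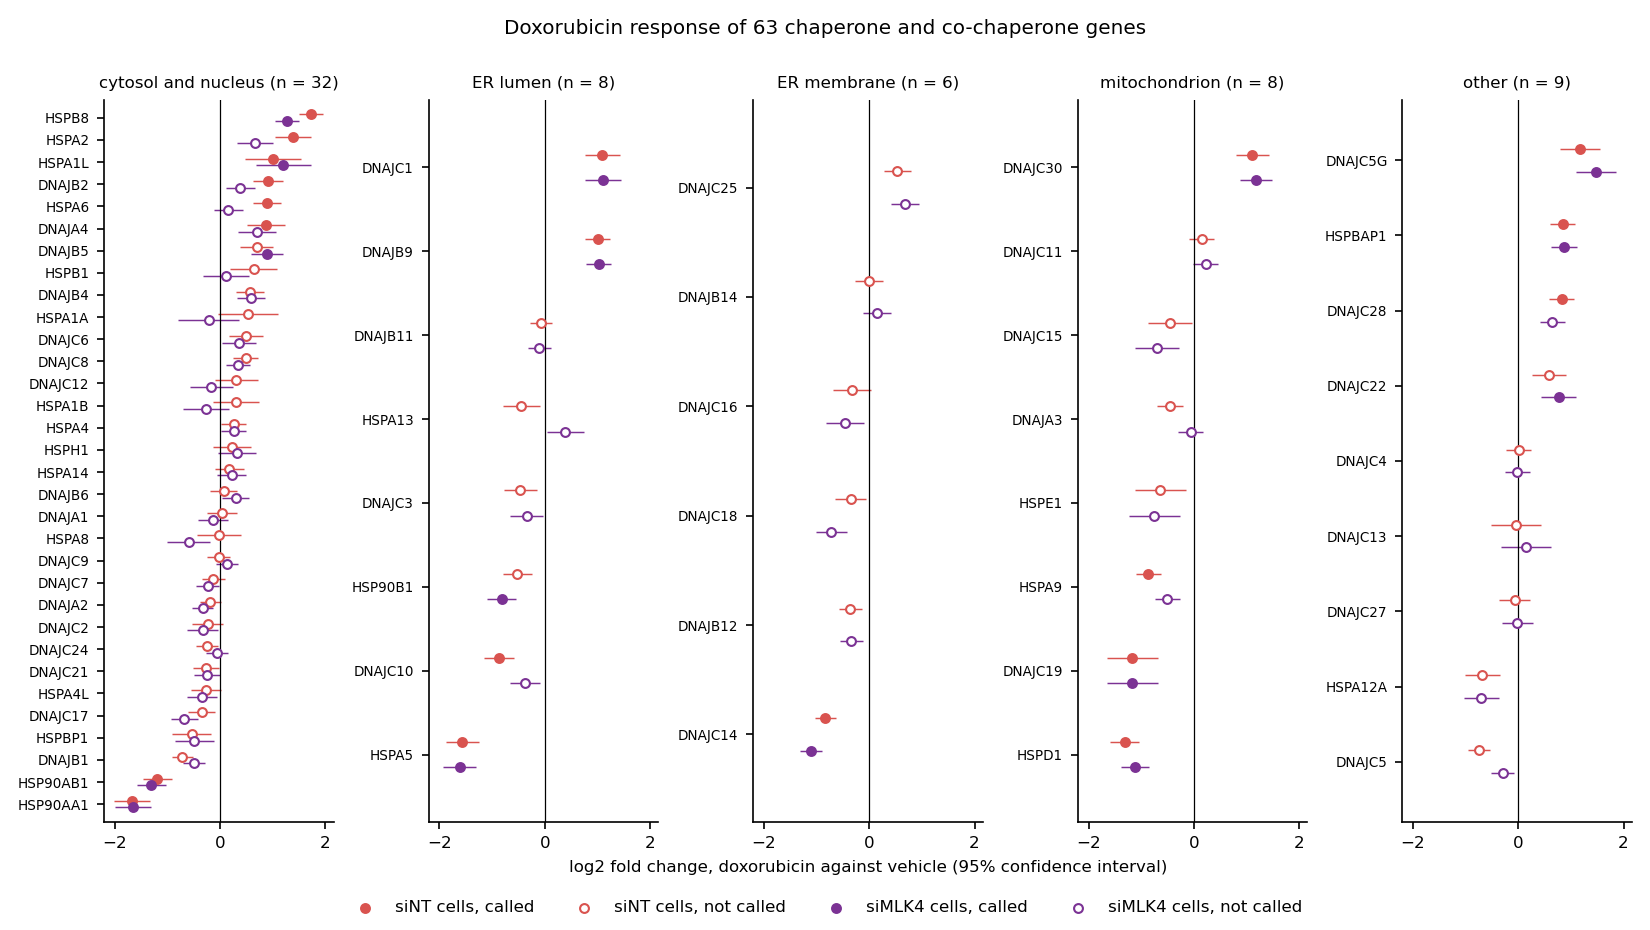
Log2 fold change with doxorubicin of the 63 members, by compartment and ordered by the value in siNT cells. Red circles are siNT cells, purple circles are siMLK4 cells, filled circles are called members and lines are 95% confidence intervals, and HSP90AA1, HSP90AB1, HSPA5 and HSPD1 stand at the low end of their compartments in both.

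Of the J-domain proteins of the cytosol, DNAJB1, the classical HSP40, was lower with doxorubicin. It had 5676, 5696 and 5508 normalized reads with vehicle and 3412, 3185 and 3610.4 with doxorubicin in siNT cells. No libraries overlapped, yet the log2 fold change of −0.72 ± 0.09 (adjusted p = 2.1e-05) stayed inside the fold threshold, as did −0.50 ± 0.09 (adjusted p = 0.00043) in siMLK4 cells. DNAJA1, another general partner of HSP70, gave 0.03 ± 0.13 and −0.13 ± 0.13 (adjusted p = 0.87 and 0.42). DNAJA4 was called in siNT cells (0.86 ± 0.17, adjusted p = 0.0006), with 0.69 ± 0.17 in siMLK4 cells (adjusted p = 0.0029). DNAJB2, which binds ubiquitin, was called in siNT cells too (0.91 ± 0.13, adjusted p = 4.5e-05), with 0.38 ± 0.13 for siMLK4 (adjusted p = 0.021). DNAJB5 was called in siMLK4 cells (0.89 ± 0.14, adjusted p = 0.00013), with 0.69 ± 0.14 for siNT (adjusted p = 0.00095). The responses of these 3 did not differ significantly between the siRNA groups (adjusted p of the interaction 0.82, 0.19 and 0.74). DNAJB2, DNAJB5, HSPA6 and DNAJC1 are named after their values were seen. DNAJC5G, of the cysteine string protein family, was close to 0 in every vehicle library, with at most 2.25 normalized reads, and had 45.2, 20.4 and 21.3 with doxorubicin in siNT cells and 49.2, 74.2 and 32.7 in siMLK4 cells. It entered the table through its doxorubicin libraries alone, and its fitted log2 fold changes of 1.17 ± 0.18 and 1.48 ± 0.18 depend on the scale at such low counts.

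In the ER lumen the members moved in opposite directions. HSPA5 fell from 71864, 54531 and 55069 normalized reads to 18996, 19668 and 21947 in siNT cells (log2 fold change −1.57 ± 0.15, adjusted p = 1.1e-06). The fall in siMLK4 cells was from 35484, 38695 and 44639 to 12701, 11354 and 14800 (−1.61 ± 0.15, adjusted p = 9.5e-07). The level with doxorubicin was 33.4% and 32.7% of that with vehicle, with no overlap. Against this, DNAJB9, an ER J-domain protein known to be induced by ER stress, rose from 716, 573 and 629.8 to 1394, 1382 and 1233 in siNT cells (1.01 ± 0.11, adjusted p = 5.2e-06), and with siMLK4 from 488, 528 and 523 to 1118, 1221 and 975 (1.03 ± 0.11, adjusted p = 4.4e-06). DNAJC1, a membrane protein with a lumenal J domain, rose in both as well (1.09 ± 0.16 and 1.11 ± 0.16). DNAJB11, the main J-domain partner of BiP, had overlapping libraries and log2 fold changes of −0.07 ± 0.10 and −0.11 ± 0.10. DNAJC3, another BiP partner, gave −0.46 ± 0.15 (adjusted p = 0.016) and −0.34 ± 0.15 (adjusted p = 0.06). DNAJC10, a disulfide reductase, fell in siNT cells (−0.88 ± 0.13, adjusted p = 7.7e-05) from 5944, 6827 and 6521 normalized reads to 3031, 3698 and 3745. This call was lost when scaling by library totals and under limma-voom. With siMLK4 DNAJC10 gave −0.38 ± 0.13 (adjusted p = 0.025), and the difference between the responses was 0.50 (adjusted p = 0.23).

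Of the 8 mitochondrial members, 6 had a negative log2 fold change with doxorubicin in each siRNA group, beside 49.7% and 48.7% of all genes, and fewer were called. The chaperonin HSPD1 fell from 57550, 48265 and 42390 normalized reads to 18818, 19778 and 20420 in siNT cells (log2 fold change −1.31 ± 0.13, adjusted p = 1.5e-06). With siMLK4 the fall was from 31739, 37573 and 35675 to 15981, 15619 and 16722 (−1.11 ± 0.13, adjusted p = 6.2e-06). Its partner HSPE1 gave −0.63 ± 0.23 and −0.75 ± 0.23 with adjusted p-values of 0.028 and 0.012, short of the call. Of the stretches of HSPD1 27.1% occur elsewhere, more in the pseudogene HSPD1P1 than in any other gene. Of those of HSPE1 48.2% occur elsewhere, more in the readthrough gene HSPE1-MOB4 than in any other. HSPA9, the mitochondrial HSP70 mortalin, fell in siNT cells from 18378, 14865 and 16834 to 8496, 9274 and 9549 (−0.87 ± 0.11, adjusted p = 1.9e-05), a call lost when scaling by library totals and under limma-voom. In siMLK4 cells its log2 fold change was −0.51 ± 0.11 (adjusted p = 0.0015). DNAJC30, named after its values were seen, rose in both, from 237, 176 and 162 to 542, 465 and 406 normalized reads in siNT cells (1.11 ± 0.14, adjusted p = 2e-05) and by 1.18 ± 0.14 with siMLK4 (adjusted p = 1.2e-05).

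Set side by side, the 32 cytosolic members had a median log2 fold change of 0.20 in siNT cells and 0.03 in siMLK4 cells, and the 14 ER members, lumen and membrane together, −0.35 and −0.34. The median over all genes was 0.005 and 0.018. When scaling by library totals the cytosolic medians were 0.44 and 0.22 and the ER medians −0.17 and −0.17, and without siNT vehicle replicate 3 the cytosolic median in siNT cells was 0.08. In siNT cells 6 cytosolic members were called higher and 2 lower, 2 and 3 of the ER members, and 1 and 3 of the 8 mitochondrial members, whose median was −0.54. In siMLK4 cells the counts were 3 and 2 in the cytosol, 2 and 3 in the ER, and 1 and 2 in mitochondria, with a mitochondrial median of −0.60. These counts stand beside 12.1% of all genes called higher and 10.6% lower in siNT cells, and 12.6% and 10.6% in siMLK4 cells. The cytosolic median in siNT cells was 0.05 when only members with a mean of at least 100 normalized reads were taken. The cytosolic median in siMLK4 cells, 0.03, was smaller than its SD between libraries, 0.08. These medians describe the lists and were not tested.

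The direction went with the level. Over all libraries 8 members had a mean of at least 10000 normalized reads, HSP90AA1, HSP90AB1, HSP90B1, HSPA5, HSPA8, HSPA9, HSPD1 and HSPH1. Of them 5 were called lower in siNT cells and 5 in siMLK4 cells, and none was called higher. Among all 213 genes of that level, 26.8% were called lower in siNT cells and 31% in siMLK4 cells, and 2.35% and 2.82% higher. Of the 8 members with a mean under 100 normalized reads, 4 were called higher and 0 lower in siNT cells, and 3 and 0 in siMLK4 cells. Among all 5956 genes of that level 17.7% were called higher and 3.76% lower in siNT cells, and 17.8% and 5.51% in siMLK4 cells. Some low genes, such as DNAJC5G, are in the table only through the libraries where they are high, which fixes their direction. Spearman's rho between level and log2 fold change in siNT cells was −0.43 over the 63 members and −0.19 over 13611 protein-coding genes. This is a correlation across genes measured in the same libraries, given as a description. The bounds on level were chosen after the data were seen.

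**Figure D3:**
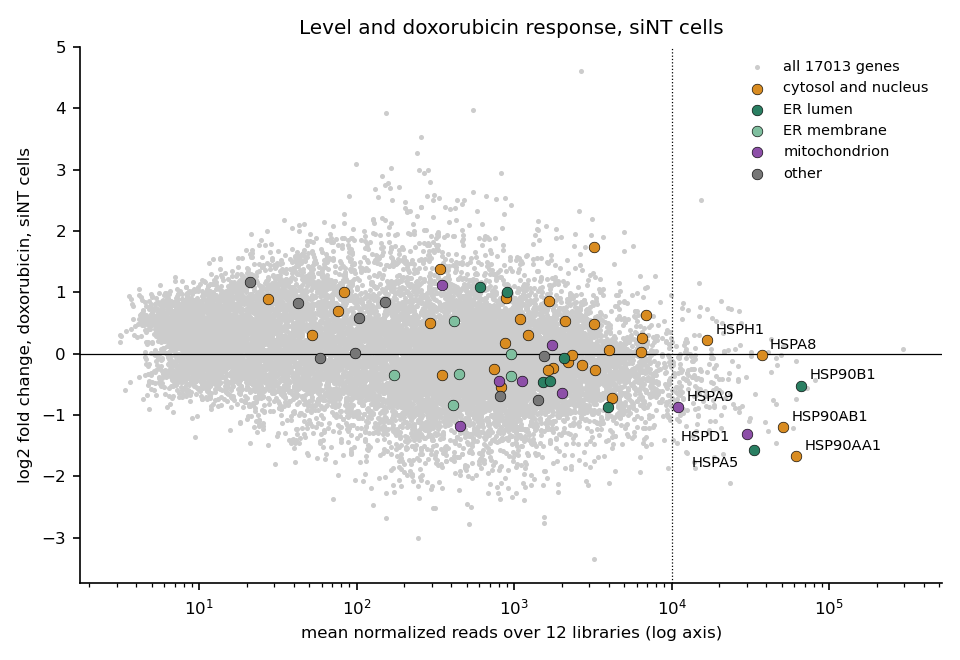
Log2 fold change with doxorubicin in siNT cells against mean normalized reads over the 12 libraries (log axis), with all 17013 genes in grey and the members coloured by compartment. The dotted line marks 10000 normalized reads, and of the 8 members to its right only HSPH1 lies above 0.

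The falling genes carried most of the reads. All members together took 2.93, 2.91 and 2.45% of the reads of the siNT vehicle libraries and 1.96, 1.99 and 1.98% of those with doxorubicin. In siMLK4 cells they took 2.18, 2.47 and 2.25% with vehicle and 1.49, 1.44 and 1.55% with doxorubicin. No doxorubicin library overlapped a vehicle library of its siRNA group. Cytosolic members took 1.533, 1.707 and 1.307% with vehicle and 1.153, 1.154 and 1.179% with doxorubicin in siNT cells, and their means with siMLK4 were 1.355 ± 0.136% and 0.906 ± 0.038% (SD, n = 3). ER lumen members went from 0.836 ± 0.093% (SD, n = 3) to 0.567 ± 0.015% with siNT, and with siMLK4 from 0.622 ± 0.045% to 0.367 ± 0.010%. Mitochondrial members went from 0.365 ± 0.043% to 0.205 ± 0.005% and from 0.282 ± 0.021% to 0.178 ± 0.009%. The 8 most abundant members held 83.5% of all member reads in siNT vehicle libraries and 72.3% with doxorubicin, and 82.5% and 68.9% in siMLK4 cells.

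**Figure D4:**
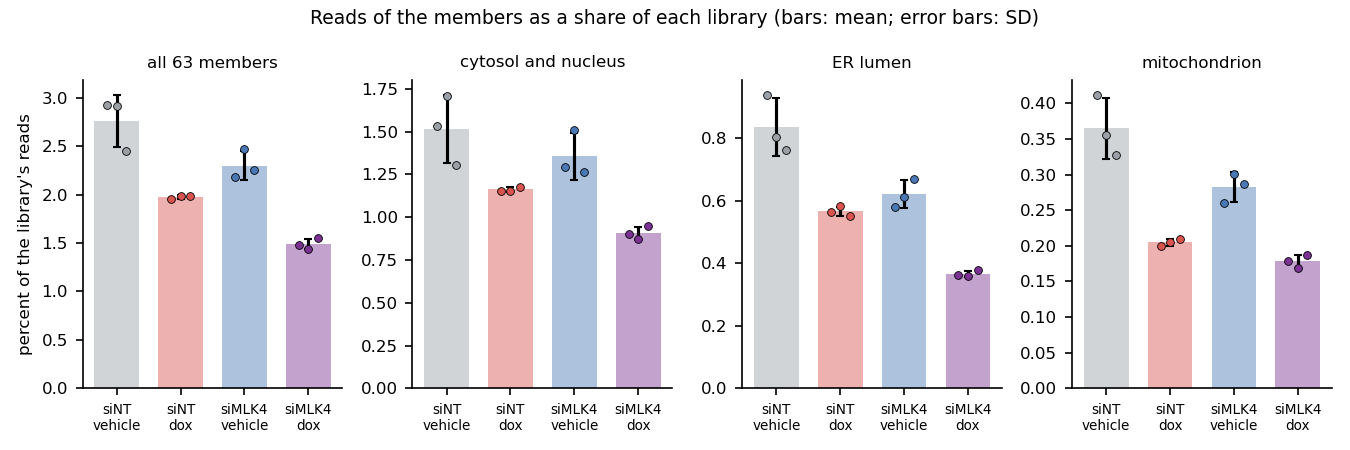
Reads of all members, and of the cytosolic, ER lumen and mitochondrial members, as percent of the reads of each library. Bars are means, error bars are SD and points are the 3 libraries of a group, and in all 4 panels the doxorubicin bar lies below the vehicle bar of the same siRNA.

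The second question was how siMLK4 cells differed from siNT cells at the same treatment. Few members passed the call, and negative log2 fold changes outnumbered positive ones. With vehicle, 1 member was called higher, beside 2.51% of all genes, and 2 lower, beside 3.14%. Without siMLK4 vehicle replicate 1 the members called were 6, and without siNT vehicle replicate 2 they were 5. With doxorubicin 0 members were called higher, beside 2.66% of all genes, and 2 lower, beside 2.93%. At an adjusted p under 0.05 with no fold threshold, 4 members were higher and 22 lower with vehicle, where 12.7% and 13% of all genes were. With doxorubicin 3 were higher and 23 lower at that threshold, where 12.7% and 12.1% of all genes were. The log2 fold change was negative in 44 members with vehicle and in 51 with doxorubicin, and in 41 in both. The median over members was −0.29 and −0.27, while that over all genes was 0.012 and 0.023. Scaling by library totals moved the all-gene median to 0.16 with vehicle and 0.12 with doxorubicin and left 36 and 47 members negative. The siMLK4 differences also went with the level. Spearman's rho between level and log2 fold change was −0.57 with vehicle and −0.56 with doxorubicin over the 63 members, and −0.29 and −0.23 over the protein-coding genes, as a description across genes of the same libraries. Of all 213 genes with a mean of at least 10000 normalized reads 72.3% were negative with vehicle and 77.9% with doxorubicin, and all 8 members of that level were.

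HSPA2 was the member called higher with vehicle, at 394, 323 and 269 normalized reads in siMLK4 cells against 86.9, 149.5 and 103 in siNT cells (log2 fold change 1.23 ± 0.16, adjusted p = 8.6e-05). DNAJC10 was lower with vehicle, at 3671, 3676 and 2628 against 5944, 6827 and 6521 (−0.95 ± 0.13, adjusted p = 0.00017). Its annotated 3′UTR holds 7-base seed matches to all 4 siRNAs, as does that of 1 other member, DNAJC15. DNAJC15 gave 0.14 with vehicle and −0.12 with doxorubicin (adjusted p = 0.65 and 0.70 with limma). The canonical transcript of DNAJC10, with 20144 bases, is the longest of the members, and that of DNAJC15 has 7459. Longer sequences have more places for a 7-base match, and the share of all genes with matches to all 4 siRNAs was not counted. The part of these matches was not tested. DNAJA3, also named Tid1, a J-domain partner of mortalin, had 911, 959.5 and 859 against 1620.5, 1486 and 1639 (−0.76 ± 0.11, adjusted p = 0.00028). The siRNA groups did not overlap with vehicle for HSPA2, DNAJC10 and DNAJA3. The call of DNAJA3 lay close to the fold threshold and was lost without siNT vehicle replicate 1 or 3 and without siMLK4 vehicle replicate 3. It was also lost when scaling by library totals and under limma-voom. With doxorubicin HSP90B1 was lower, at 36678, 37100 and 38448 against 66292, 68101 and 63774 (−0.82 ± 0.13, adjusted p = 0.00046). DNAJA4 was lower too, at 1492, 1886 and 1243 against 2716, 3028 and 2393 (−0.81 ± 0.17, adjusted p = 0.0032), a call lost without siNT doxorubicin replicate 1 or 2 and without siMLK4 doxorubicin replicate 1 or 3. Neither was called when scaling by library totals or under limma-voom.

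Below the call, HSPA5 was lower with siMLK4 with vehicle (−0.60 ± 0.15, adjusted p = 0.0077) and with doxorubicin (−0.65 ± 0.15, adjusted p = 0.0054), with no overlap of libraries. DNAJC3 gave −0.68 ± 0.15 and −0.56 ± 0.15, HSPH1 −0.59 ± 0.17 and −0.49 ± 0.17, and DNAJA1 −0.47 ± 0.13 and −0.63 ± 0.13. HSPA9 gave −0.65 ± 0.11 with vehicle and −0.28 ± 0.11 with doxorubicin. HSP90AA1 gave −0.33 ± 0.16 and −0.31 ± 0.16 (adjusted p = 0.14 and 0.17), and neither was significant. HSPA8 gave −0.12 ± 0.19 and −0.70 ± 0.19 (adjusted p = 0.68 and 0.016 with limma). Other canonical members were higher with vehicle and lower with doxorubicin, none significantly. These were HSPA1A (0.65 and −0.09), HSPA1B (0.44 and −0.14) and HSPB1 (0.16 and −0.35). HSP90AB1, DNAJB1, DNAJB9, DNAJB11, HSPD1 and HSPE1 were negative at both treatments. By compartment, the median was −0.30 with vehicle and −0.31 with doxorubicin in the cytosol, and −0.42 and −0.41 in the ER, where 12 and 13 of 14 members were negative. Of the 22 members lower with vehicle at an adjusted p under 0.05, 63.6% hold a 7-base match to the seed of at least 1 of the 4 siRNAs in their annotated 3′UTR, beside 49.2% of all members, 44.3% of all genes with a 3′UTR and 55.4% of all genes lower in this way. With doxorubicin the shares were 56.5% of 23 members and 56.2% of all such genes. The part of seed matches in these values was not tested.

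**Figure D5:**
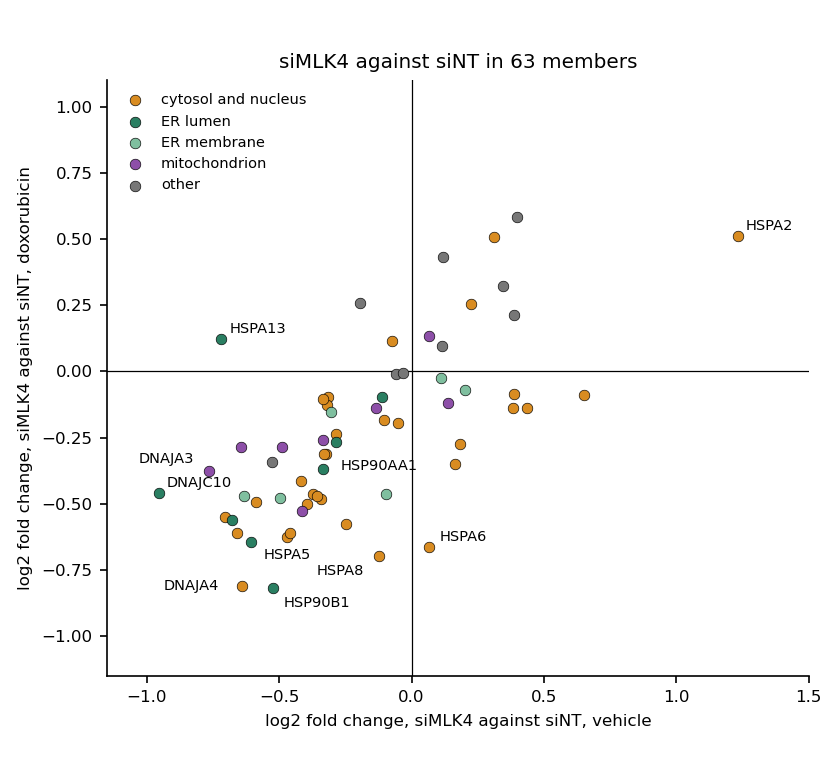
Log2 fold change of siMLK4 against siNT cells with vehicle (horizontal) and with doxorubicin (vertical) for the 63 members, coloured by compartment. In all, 41 members lie at the lower left, and HSPA2 stands apart on the right.

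The third question was whether the doxorubicin response itself differed between siRNA groups. No member was called in the interaction with limma, where 0.276% of all genes were, and none had an adjusted p under 0.05. At an unadjusted p under 0.05 there were 9 members, beside 14.5% of all genes. The nearest was HSPA6, whose rise was seen in siNT cells, with a difference of −0.73 and a 95% confidence interval of −1.11 to −0.35 (adjusted p = 0.062). HSPA13, an HSP70 relative of the ER and named after its values were seen, differed by 0.84 with an interval of 0.34 to 1.34 (adjusted p = 0.095). It went from 2309, 1534 and 2747 normalized reads to 1365, 1579 and 1731 in siNT cells and from 1399, 1248 and 1196 to 1669, 1703 and 1702 in siMLK4 cells. HSPA2 differed by −0.72 (interval −1.20 to −0.24) and HSPB8 by −0.46 (interval −0.78 to −0.14), with adjusted p-values of 0.14 and 0.16. For HSP90AA1 the difference was 0.02, with an interval of −0.46 to 0.50, and for HSPA5 −0.04, with an interval of −0.48 to 0.40. The unadjusted 95% interval reached a median of 0.40 to either side over the members. Differences larger than this could also be missed after adjustment, as 0.84 for HSPA13 was not called.

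Of the other genes of the pathway, 71 were followed. With doxorubicin 3 were called higher and 11 lower in siNT cells, and 6 and 8 in siMLK4 cells. As shares these were 4.23% and 15.5%, beside 12.1% and 10.6% of all genes, and 8.45% and 11.3%, beside 12.6% and 10.6%. With siMLK4 none was called higher, and 5 (7.04%) were called lower with vehicle, beside 3.14% of all genes, and 1 (1.41%) with doxorubicin, beside 2.93%. HSF1, the heat shock factor, had 2514, 2427 and 2181 normalized reads in siNT vehicle libraries and 2064, 1844 and 1961 with doxorubicin (log2 fold change −0.27 ± 0.10, adjusted p = 0.036), and −0.06 ± 0.10 in siMLK4 cells. Of its list of 12 genes of the heat shock factors and their pathway, CRYAB, a small heat shock protein, was the 1 called lower in both groups (−0.82 ± 0.14 and −1.28 ± 0.14). CRYAB was low, with means of 41.9 and 81.1 normalized reads with vehicle and 10.2 and 12.5 with doxorubicin in siNT and siMLK4 cells. The variance-stabilized scale compresses changes at such levels. STUB1, the ubiquitin ligase that binds HSP70 and HSP90, fell in both (−1.63 ± 0.22 and −0.78 ± 0.22). FKBP5, a co-chaperone of HSP90 and of steroid receptors, rose in both (1.03 ± 0.20 and 1.12 ± 0.20). ATF5, a factor of the mitochondrial stress response, rose in both as well, from 427, 426 and 328 to 1312, 1274 and 1267 normalized reads in siNT cells (1.59 ± 0.12, adjusted p = 2e-07) and by 1.73 ± 0.12 on the log2 scale in siMLK4 cells (adjusted p = 1.1e-07). Of 8 subunits of the TRiC chaperonin, which folds actin and tubulin, 1 was called lower with doxorubicin in each siRNA group, and all 8 were lower with siMLK4 and vehicle at an adjusted p under 0.05 (median −0.53), as were 13% of all genes.

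In the ER list of 18 folding and degradation genes, 4 (22.2%) were called lower and 0 higher with doxorubicin in each siRNA group, beside 10.6% of all genes lower in each. CALR, the lectin chaperone calreticulin, fell from 76097, 72674 and 68056 normalized reads to 26304, 24155 and 28853 in siNT cells (−1.45 ± 0.12, adjusted p = 4.1e-07) and by 1.49 on the log2 scale in siMLK4 cells (SE 0.12, adjusted p = 3.8e-07). EDEM1, which directs misfolded glycoproteins to degradation, was lower with siMLK4, with 1085, 906 and 852 normalized reads against 3105, 2674 and 3329 with vehicle (−1.63 ± 0.12, adjusted p = 7.6e-07) and a log2 fold change of −1.13 ± 0.12 with doxorubicin (adjusted p = 2e-05). Of the regulators, ATF6 had overlapping libraries in each comparison, with log2 fold changes of −0.03 to 0.08. XBP1 gave −0.59 ± 0.19 with doxorubicin in siNT cells (adjusted p = 0.016), while siMLK4 cells gave −0.36 ± 0.19 (adjusted p = 0.12). ATF4 fell in siNT cells from 16688, 8786 and 11666 to 4177, 3926 and 4739 normalized reads (−1.48 ± 0.25, adjusted p = 0.00022), and its target TRIB3 from 7214, 2024 and 4535 to 1117, 914 and 1221 (−1.86 ± 0.38, adjusted p = 0.00087). In siMLK4 cells ATF4 gave −0.83 ± 0.25 (adjusted p = 0.012) and TRIB3 −0.80 ± 0.38 (adjusted p = 0.087), both short of the call. DDIT3, which encodes CHOP, rose in siMLK4 cells from 317, 369.7 and 987 to 1786, 1376 and 2159 (1.72 ± 0.35, adjusted p = 0.00078), while in siNT cells its libraries overlapped (0.53 ± 0.35, adjusted p = 0.21). Of the 8 regulators listed, 0 were called higher and 2 lower in siNT cells, and 3 and 0 in siMLK4 cells. These counts stand beside 12.1% of all genes called higher and 10.6% lower in siNT cells, and 12.6% and 10.6% in siMLK4 cells. None of the 8 regulators had an interaction with an adjusted p under 0.05 (0.45 for ATF4, 0.39 for TRIB3 and 0.27 for DDIT3). PPP1R15A, a phosphatase subunit of the same branch, was lower with siMLK4 and vehicle (−1.21 ± 0.24, adjusted p = 0.002). These stress genes differed widely between vehicle libraries of the same group, with replicate 1 highest in siNT cells and replicate 3 highest in siMLK4 cells for ATF4, TRIB3, DDIT3 and PPP1R15A.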

How the data were processed

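mRNA-seq was performed on HCC1806 cells in 4 groups of 3 libraries. Per the labels and the study's methods, the authors trimmed reads with Trimmomatic (0.39), aligned them with HISAT2, removed optical duplicates, and counted reads per gene by strand with HTSeq (0.6.0). The methods name GRCh38 and the submitters' processing notes name hg19. The deposited values are on a log2 scale, after size factor scaling and variance stabilization with DESeq2 (1.26.0) by the authors, as read from the values. Inverting the scale gave whole reads, within 0.05, for all values, and these served for levels, shares and depth, 16759025 to 19302248 reads per library. Counting error weighs most on members with few reads.

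The deposited log2 values were fitted with limma (3.58.1, R 4.3.3) over all 12 libraries with 4 group means, empirical Bayes moderation with a trend, and Benjamini-Hochberg adjustment over 17013 genes. Calls needed a log2 fold change beyond 0.75 in size together with an adjusted p under 0.01. Symbols, coordinates and lengths came from GENCODE release 44 (GRCh38), which matched 16957 of the genes, and promoters from RefSeq. Alternatives were scaling by TMM or by library totals, both on log2(reads + 1), and limma-voom. Others were pseudocounts of 1 and 8, a filter of at least 10 reads, a replicate block and leaving out each library.

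Named genes were a set of canonical members, the 3 called members with the largest non-overlapping change in each direction of each comparison, the regulators HSF1, XBP1, ATF4, ATF6 and DDIT3, the 2 most changed called pathway genes in each direction, and MAP3K21. Members, lists and compartments were chosen with earlier results of these data known. Deviations from the group means of libraries with the same number correlated at 0.46, 0.105 and 0.205 for doxorubicin in siNT cells and at 0.19, 0.516 and 0.559 for siMLK4 against siNT with doxorubicin, all over 0.1. For doxorubicin in siMLK4 cells they were −0.0774, 0.176 and 0.337, and for siMLK4 against siNT with vehicle −0.723, 0.325 and −0.523, so the numbers did not pair the libraries of these comparisons. The main fit used no pairing.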

Additional observations from a re-analysis of the deposited data

How the results depend on the processing

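With no fold threshold and an adjusted p under 0.05 in limma, 40 and 39 members passed with doxorubicin in siNT and siMLK4 cells and 26 with siMLK4 at each treatment. With doxorubicin 29.6% of all genes were higher and 27.7% lower at that threshold in siNT cells, and 30.2% and 27.7% in siMLK4 cells. When scaling by library totals, 1 member was called with siMLK4 and doxorubicin, and it was neither of the 2 called otherwise. For the doxorubicin responses, leaving out 1 library gave 20 to 21 called members in siNT cells and 16 to 22 in siMLK4 cells. Leaving out 1 library gave 2 to 6 called members with siMLK4 and vehicle (5 without siNT vehicle replicate 2 and 6 without siMLK4 vehicle replicate 1) and 1 to 3 with doxorubicin (1 when the siNT library left out was replicate 1 or 2, or the siMLK4 library replicate 1 or 3). The replicate block changed no count of members, with 20, 16, 3 and 2 called in the 4 comparisons, and 0 members were called in the interaction under any alternative.

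Under library totals and under limma-voom alike, the cytosolic median was 0.44 and 0.22 with doxorubicin in siNT and siMLK4 cells and −0.17 and −0.23 with siMLK4 at vehicle and doxorubicin. The ER median was −0.17 and −0.17, then −0.30 and −0.34. With members of a mean of at least 100 normalized reads, the cytosolic median with doxorubicin was 0.05 and −0.09. Lumenal ER members alone gave −0.45 and −0.22 with doxorubicin and −0.56 with siMLK4 and vehicle. Leaving out 1 library, chosen for the medians after the data were seen, gave cytosolic medians of 0.08 to 0.24 with doxorubicin in siNT cells (0.08 without siNT vehicle replicate 3), −0.32 to −0.22 with siMLK4 and vehicle and −0.38 to −0.24 with siMLK4 and doxorubicin. ER medians were −0.40 to −0.28 with doxorubicin in siMLK4 cells and −0.45 to −0.36 with siMLK4 and vehicle. The cause of these shifts was not tested.

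Of the called members, 16 of 20 with doxorubicin in siNT cells and 14 of 16 in siMLK4 cells were called in every alternative that tested them (the filter of at least 10 reads removed DNAJC5G in both), and with siMLK4 2 of 3 with vehicle and 0 of 2 with doxorubicin. With 3 libraries a group, differences between the responses smaller than about 0.40 on the log2 scale could not be resolved for the median member.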

Other observations

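The table also holds 7 rows whose symbols fit the rule but which are not protein coding. The pseudogene HSPD1P1 had group means of 38.8, 13.6, 21.1 and 10.3 normalized reads in siNT vehicle, siNT doxorubicin, siMLK4 vehicle and siMLK4 doxorubicin libraries, the same order as HSPD1, whose reads it can share. DNAJC3-DT, a transcript divergent from DNAJC3, had 32.7, 94.6, 48.9 and 103 in that order of groups, and its log2 fold change with doxorubicin in siNT cells was 0.90 with limma (adjusted p = 6.2e-05). DNAJC3 itself had lower means with doxorubicin in both siRNA groups. The other rows, the pseudogenes HSP90B2P and DNAJB6P1, DNAJA2-DT and 2 rows named DNAJC9-AS1, had group means of 0.737 to 71.5 normalized reads, and none was called in any comparison.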
